A study of Macaca fascicularis with 1154 samples.

Results

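The IDs ENSMFAG00000000004 and ENSMFAG00000000002 of the count table are described here in single cells of cultured monkey embryos. They were picked by name from 28592 deposited IDs, with their high counts in these data already known. Their levels are therefore a description, and no test is given on them. The cells were those with at least 100000 counts, which left 593 of 600 cells. At that limit, the shallowest cell kept (E17 B1p cell 00041, 107155 counts) had 23.2% of its counts in ENSMFAG00000000004 and 0.901% in ENSMFAG00000000002. In the deepest cell left out (E19 B2 cell 12, 98171 counts) these shares were 13.4% and 2.55%.

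The cells came from embryos of the cynomolgus monkey (Macaca fascicularis) that were kept in culture to follow the setting apart of embryonic and extra-embryonic lineages. Each cell was picked by hand after trypsin digestion and made into 1 SMART-seq2 library, which covers full-length transcripts primed at their poly(A) tails and carries no molecular identifiers. The titles give a day (9, 11, 13, 15, 17, 19 or 20), a B number and a cell number. A collection here means all kept cells with the same day and the same B number. The 593 kept cells made up 15 of them, with 8 to 87 cells each. No genotype, treatment or sex is given, and all cells are labelled as embryo. What the B number and the letters pe and p in the titles of E13 B1pe and E17 B1p stand for is not given. Whether different collections come from different embryos is not stated, so p-values measure the spread between collections, which may be technical.

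The working name of the pair was that of the RNAs of the mitochondrial ribosome. As background, mitochondria keep a small genome and their own ribosomes, whose large and small subunits are each built around an RNA encoded in that genome. These RNAs lie close together, are read from a shared promoter region and carry short A tails, so that poly(A)-primed libraries capture part of them. The name rested on the numbering of the IDs and on their abundance alone. None of the deposited IDs (0 of 28592) was found in the gene table used here, so the name was not tested against an annotation, and the IDs are used as deposited. No sequence is shown for the same reason.

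Total counts per kept cell ran from 107155 to 18828705 with a median of 2660370, and 2292 to 10652 IDs were detected per cell. No column was identical to another (0 of 600). Transcript lengths were not used, so every share, rank and ratio below is one of read counts and not of molecules per length. Because all shares of a cell add up to its total, a high share of these IDs lowers the shares of all the others.

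ENSMFAG00000000004 was the ID with the most counts in 432 of 593 cells (72.8%) and among the first 10 in 557. Its share of a cell's counts had a median of 6.24%, with quartiles of 2.29% and 13.2%. Pooled over all kept cells it took 7.57% of the counts, 3.99 times as many as the next ID, ENSMFAG00000046421, at 1.90%. The range over cells was wide. In E15 B1 cell 95 it took 0.0292% and ranked at 593 among the IDs, and in E17 B4 cell 56 it took 77.1%. Its share was over 10% in 208 cells, over 25% in 74 and over 50% in 19. In the 161 cells where it did not come first, 32 other IDs did, led by ENSMFAG00000037868 in 45 cells.

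ENSMFAG00000000002 was also counted in every kept cell, at a much lower level. Its median share was 0.180%, with quartiles of 0.0673% and 0.450%, and its median rank within a cell was 86. It ranked second in 61 cells and first in 0. Its distribution had a long upper tail. Its share was over 1% in 84 cells from 12 collections and over 10% in 18 cells from 8 collections. The highest value was 38.9% in E11 B2 cell 60, where it had 807499 counts. The lowest were in 3 cells of E17 B4, described with the ratio below.

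Most of the variation of both IDs lay among cells of the same collection. On the log2 scale the share of ENSMFAG00000000004 had an SD of 1.66 within collections, and 26.6% of its variance over cells lay between collections. The share of ENSMFAG00000000002 had an SD of 2.34 within collections, with 13.3% of its variance between them. The plot of shares by collection shows this spread.

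**Figure D1:**
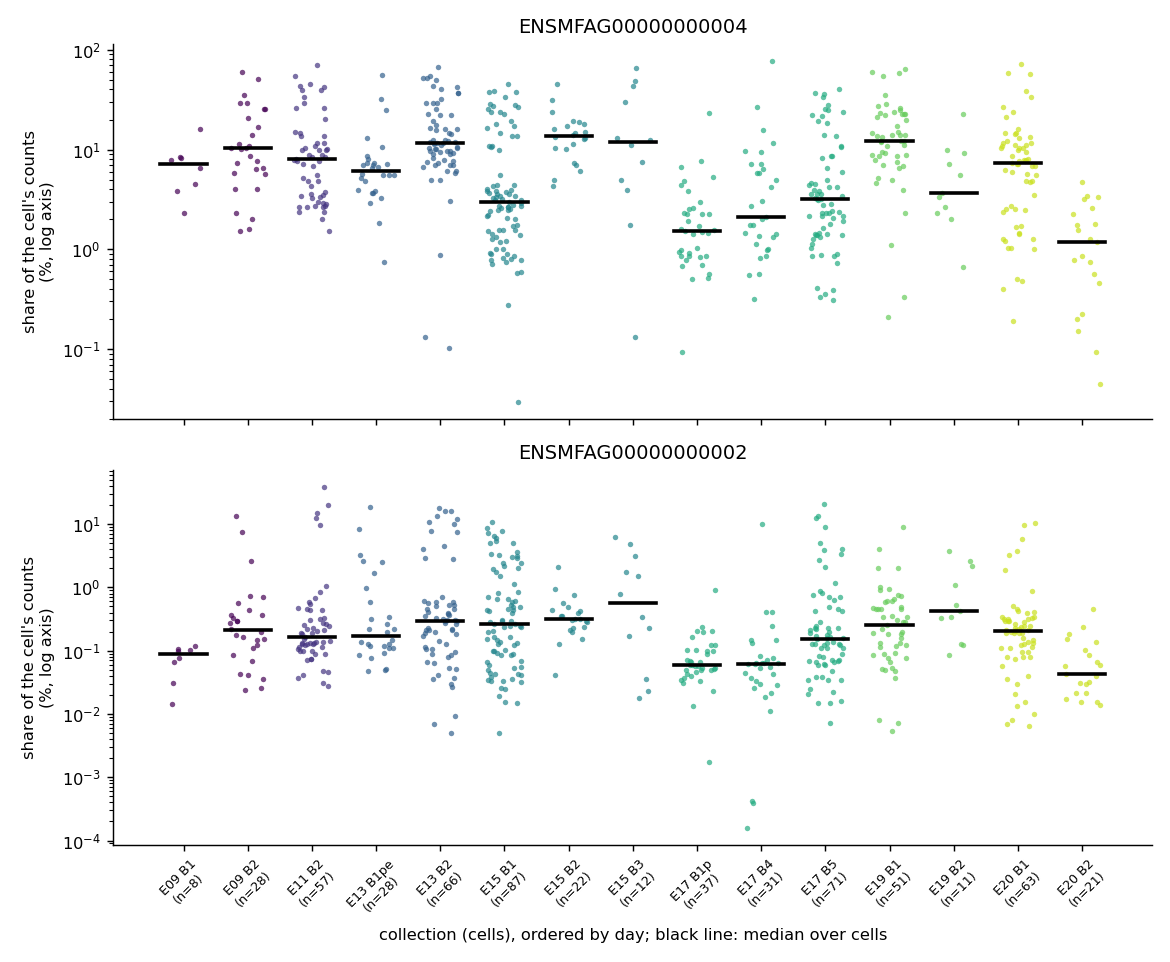
Share of each cell's counts (%, log axis) in ENSMFAG00000000004 (top) and ENSMFAG00000000002 (bottom) in 593 cells of 15 collections ordered by day, 1 point per cell coloured by day, with the median as a black line. Collection medians lie between 1.18% and 13.7% for the first ID and between 0.0426% and 0.562% for the second, and in most collections, E09 B1 being an exception for both IDs, the cells spread more widely than these medians.

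By collection, the median share of ENSMFAG00000000004 was lowest in E20 B2 (1.18%), E17 B1p (1.52%), E17 B4 (2.09%), E15 B1 (3.01%), E17 B5 (3.21%) and E19 B2 (3.63%). It was 6.13% in E13 B1pe, 7.15% in E09 B1, 7.28% in E20 B1, 8.10% in E11 B2 and 10.3% in E09 B2. The highest medians were 11.6% in E13 B2, 11.9% in E15 B3, 12.3% in E19 B1 and 13.7% in E15 B2. Between the ends of this order the medians differed 11.6-fold. The interquartile ranges over cells lay apart there, at 0.457% to 2.24% in E20 B2 and 10.2% to 17.8% in E15 B2. In all 14 pairs of neighbours these ranges overlapped, which the sorting by median makes likely. The highest cell of E20 B2 had 4.73%, when the highest cell of each other collection had 16.2% or more. These maxima are single cells, and the third quartile of E20 B2 (2.24%) was close to that of E17 B1p (2.52%).

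For ENSMFAG00000000002 the lowest medians were again in E20 B2 (0.0426%), E17 B1p (0.0585%) and E17 B4 (0.0623%). They were followed by E09 B1 (0.0881%), E17 B5 (0.155%), E11 B2 (0.165%), E13 B1pe (0.171%), E20 B1 (0.206%), E09 B2 (0.210%) and E19 B1 (0.251%). The upper end held E15 B1 (0.260%), E13 B2 (0.293%), E15 B2 (0.313%), E19 B2 (0.421%) and E15 B3 (0.562%). Here too all 14 pairs of neighbours had overlapping interquartile ranges. Those at the ends lay apart, at 0.0215% to 0.101% in E20 B2 and 0.135% to 2.11% in E15 B3. E15 B1 and E19 B2 were thus in the lower part of the order for the first ID and in the upper part for the second.

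In every cell (593 of 593) ENSMFAG00000000004 had more counts than ENSMFAG00000000002, but the ratio of the counts was far from constant. Its median was 26.9, with quartiles of 13.0 and 54.4, and the central 90% of cells ran from 3.48 to 140.3. Within collections the log2 ratio had an SD of 1.51. The ratio was lowest in E11 B2 cell 60, at 1.11, where the IDs took 43.2% and 38.9% of the counts and so 82.2% together. In the other cells with over 80% in both IDs the ratio was 7.59 (E17 B4 cell 56, 87.3% together), 4.65 (E11 B2 cell 39, 85.7%) and 6.97 (E20 B1 cell 30, 82.8%). A low ratio was also seen at a low summed share: E19 B1 cell 61 had a ratio of 1.51 with 0.336% and 0.223%.

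At the other end, the ratio passed 1000 in 4 cells, and 3 of them were from E17 B4. In these 3 cells the shares of ENSMFAG00000000004 were 1.43%, 2.03% and 1.36%, near the median of their collection, and it was ENSMFAG00000000002 that was almost missing. E17 B4 cell 27 had 11 counts of it among 6983235, a share of 0.000158% (exact 95% binomial interval 7.86e-05% to 0.000282%, which covers counting error only). Cells 31 and 89 of this collection had 25 and 15 counts, and ratios of 5213 and 3199. The next lowest share, 0.00176%, rested on 9 counts in a shallower cell of E17 B1p, where the ratio was 53.6. The fourth cell with a ratio over 1000 was E19 B1 cell 37, at 1327. These cells were singled out after their values were seen.

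**Figure D2:**
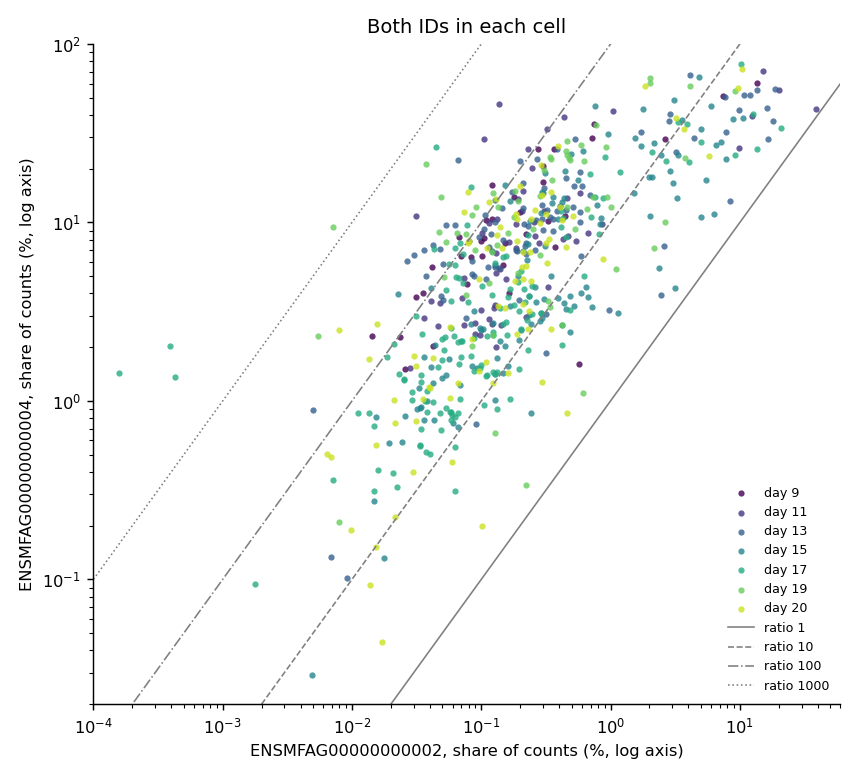
Share of counts of ENSMFAG00000000004 (vertical) against ENSMFAG00000000002 (horizontal) on log axes, 1 point per cell coloured by day, with grey lines at ratios of 1, 10, 100 and 1000. All 593 cells lie above the line of ratio 1, and the 3 isolated points on the left are cells of E17 B4.

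Across cells of 1 collection both IDs were high together. Taken per count outside the pair, their Spearman rho was between 0.511 (E13 B1pe) and 0.937 (E15 B1) in the 14 collections with at least 10 cells, with a median of 0.741. These points share the denominator, so the values are a description. The ratio went with the second ID more than with the first. Its rho with the share of ENSMFAG00000000002 was negative in 14 of 14 collections (median -0.603), and its rho with the share of ENSMFAG00000000004 was negative in 8 and positive in 6 (median -0.104). Each share is itself a part of the ratio.

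Whether the IDs followed the day was asked over collections. For ENSMFAG00000000004 the mean of the collection medians was 8.70 ± 2.20% at day 9 (SD, n = 2), 8.10% in the only collection of day 11 and 8.87 ± 3.87% at day 13 (SD, n = 2). It was 9.53 ± 5.71% at day 15 and 2.27 ± 0.859% at day 17 (SD, n = 3 each). The collections of day 19 averaged 7.95 ± 6.11% and those of day 20 averaged 4.23 ± 4.31% (SD, n = 2 each). All 3 collections of day 17 lay below those of days 9, 11 and 13 and below both of day 19, while day 17 overlapped days 15 and 20.

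For ENSMFAG00000000002 day 9 had a mean of 0.149 ± 0.0863% and day 13 one of 0.232 ± 0.0861%, while day 19 had 0.336 ± 0.120% and day 20 had 0.124 ± 0.115% (SD, n = 2 each). They were 0.379 ± 0.161% at day 15 and 0.0920 ± 0.0548% at day 17 (SD, n = 3 each), and day 11 had 0.165%. The collections of day 17 lay below all of days 11, 13, 15 and 19, and overlapped those of days 9 and 20. For the ratio, day 9 was highest, at 77.3 ± 34.0 (SD, n = 2), and the means of the later days lay between 22.9 ± 14.3 at day 15 (SD, n = 3) and 38.2 at day 11.

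None of these differences passed a test against the spread between collections. A permutation test of the F statistic over the 7 days gave an adjusted p of 0.392 for the share of ENSMFAG00000000004, 0.392 for ENSMFAG00000000002 and 0.532 for the ratio (15 collections, Benjamini-Hochberg over 4 measures, the summed share among them at 0.392). As a linear relation with the day, the median log2 share of ENSMFAG00000000004 had r = -0.452 with a permutation p of 0.0906, and rho = -0.350 with a permutation p of 0.2004. For ENSMFAG00000000002 r was -0.0889 and rho -0.121, at permutation p-values of 0.755 and 0.665. For the log2 ratio r was -0.503 and rho -0.449, at permutation p-values of 0.0553 and 0.0949. Over the family of 12 relations the adjusted p for r was 0.155, 0.873 and 0.155 in that order, and for rho 0.301, 0.665 and 0.190. Without the day 9 collections, which lie farthest from the median day, r was -0.412, -0.257 and -0.217, so the ratio's r rested in large part on them. With pooled counts of each collection the ratio's r was -0.238. Within the collections whose titles hold no dots, r was -0.446, -0.0467 and -0.495, and the style with dots had too few collections for a value.

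**Figure D3:**
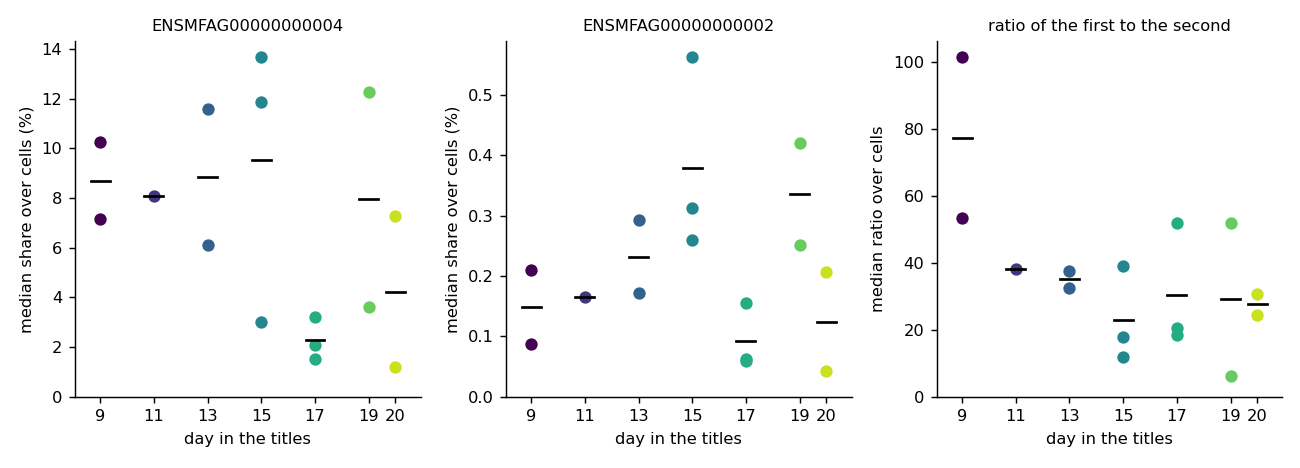
Median over cells of the share of ENSMFAG00000000004 (left, %), of ENSMFAG00000000002 (middle, %) and of their ratio (right) in each of 15 collections against the day, with black bars for the mean of a day. The collections of day 17 are low for both shares, and those of days 13, 15, 19 and 20 lie far apart for the first ID.

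The same question was put to the summed counts of each collection in a fit over all IDs (edgeR's quasi-likelihood test, day as a number, 14 collections with at least 10 cells). In it, 2 of 16002 IDs were called with the day (0.0125%), and of the pair 0 of 2, at unadjusted p-values of 0.240 and 0.0640 (edgeR). For ENSMFAG00000000002 the unadjusted p in edgeR was 0.0495 with total counts alone, 0.0278 without E09 B2 and 0.0224 without E20 B1. The adjusted p of each was 0.860 or more (edgeR). In the other edgeR settings its unadjusted p was above 0.05, up to 0.272 with at least 5 cells per collection. With limma, ENSMFAG00000000004 had an unadjusted p of 0.0205 and an adjusted p of 0.745. A p that misses the threshold does not show that a level was the same on all days. ENSMFAG00000000004 had 110782 CPM (its counts relative to the library total scaled by TMM) in E09 B2, 129950 in E11 B2, and 86561 and 108450 in the collections of day 13. At day 15 it had 33388, 138222 and 60986, and at day 17 17017, 43666 and 38534. Days 19 and 20 held both high and low collections, with 142913 and 36332 and with 112136 and 11344.

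Its slope was -0.09 ± 0.07 log2 units per day (SE, n = 14, adjusted p = 1.00, edgeR). ENSMFAG00000000002 had 3588 CPM in E09 B2 and 10947 in E11 B2, the highest of all 14. The other collections lay between 638.1 (E17 B1p) and 8287 (E13 B2). The sum of E11 B2 drew heavily on single cells: its cells 60, 48 and 39 had 807499, 643003 and 498872 counts of this ID. By the median share over cells (0.165%) E11 B2 was not among the highest collections. The slope of ENSMFAG00000000002 was -0.15 ± 0.07 log2 units per day (SE, n = 14, adjusted p = 0.928, edgeR).

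Within collections, cells with a high share of the pair had low totals and few other IDs. The rho of the summed share with the total count of the cell was negative in 14 of 14 collections, with a median of -0.479 and a range from -0.895 in E15 B3 to -0.0247 in E20 B2. The total enters both measures. When only counts outside the pair were used, for the depth and as the denominator, the median was -0.563. Those counts again enter both measures, so this value is not free of the shared term either. With the number of detected IDs, rho was negative in 13 of 14 collections (median -0.457), the exception being E20 B2 at 0.182.

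Detection depends on depth, so other IDs were also counted at an equal expected depth of 50000 counts outside the pair, which all 593 kept cells reached. This number had a median of 3547 over cells and ran from 1136 to 6572. Its rho with the summed share was again negative in 13 of 14 collections, with a median of -0.469, between -0.764 in E09 B2 and 0.236 in E20 B2. The values for ENSMFAG00000000004 alone were close to these (median -0.471), and those for ENSMFAG00000000002 were smaller in size (median -0.284). The ratio had no common direction with it, at a median of 0.0692 with 8 positive and 6 negative collections. The part of depth, cell size or RNA quality in these relations was not tested.

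**Figure D4:**
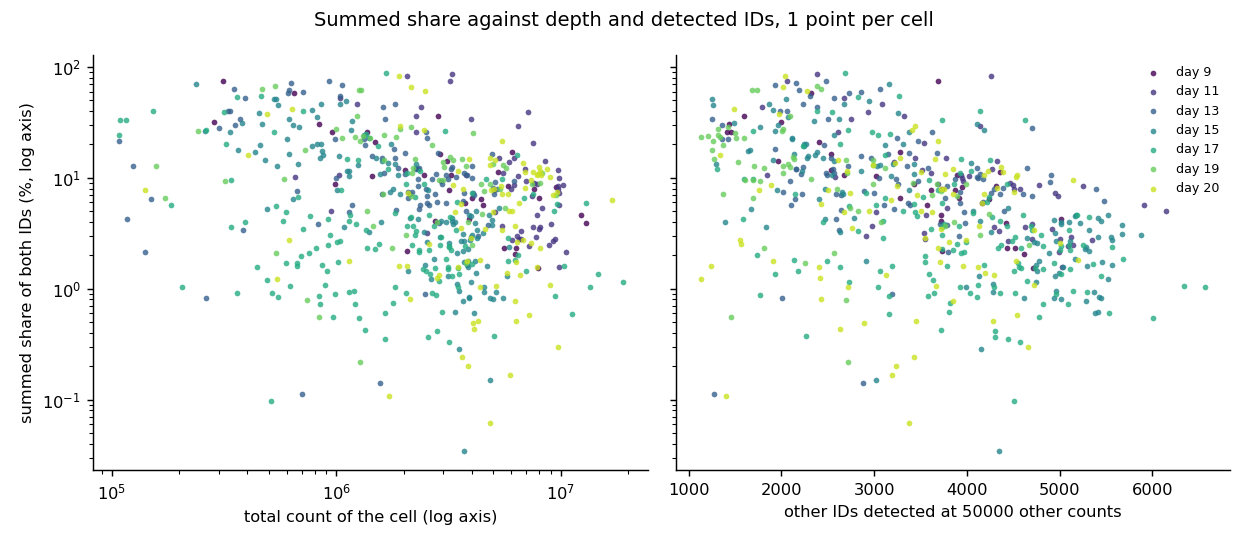
Summed share of ENSMFAG00000000004 and ENSMFAG00000000002 (%, log axis) against the total count of the cell (left, log axis) and against the number of other IDs detected at an expected 50000 other counts (right), 1 point per cell coloured by day. Points at the same total or the same number of other IDs scatter widely, and the 5 cells with the largest summed shares (up to 87.3%) lie in the middle of the range of totals.

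Over collections, none of the relations with depth or detection passed after adjustment. The median summed share against the median number of other IDs at equal depth had r = -0.519 (permutation p = 0.0485, adjusted p = 0.155 over 12) and rho = -0.614 (permutation p = 0.0171, adjusted p = 0.103). Without E15 B1 and E19 B1, the farthest in that number, r was -0.429, and in the titles without dots -0.442. For ENSMFAG00000000004 alone r was -0.512 (permutation p = 0.0523) and for ENSMFAG00000000002 -0.467 (permutation p = 0.0798), with an adjusted p of 0.155 for each. With pooled counts the latter was -0.253. The log2 ratio against the median log10 total count had r = 0.614 (permutation p = 0.0143, adjusted p = 0.155) and rho = 0.514 (permutation p = 0.0532, adjusted p = 0.160). It was 0.262 without E09 B1 and E19 B2, the deepest and the shallowest collection, on which it thus rested. With the pooled counts of each collection in place of medians it was 0.292, and in the titles without dots 0.621. The share of ENSMFAG00000000002 against the total had r = -0.462 (permutation p = 0.0840, adjusted p = 0.155) and rho = -0.475 (permutation p = 0.0772, adjusted p = 0.185). This r moved in both directions with the choices made: it was -0.735 in the titles without dots (permutation, adjusted p = 0.0547), -0.291 without E09 B1 and E19 B2, and -0.183 with pooled counts. That of ENSMFAG00000000004 against the total had r = -0.0448 (permutation p = 0.873, adjusted p = 0.873).

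The IDs whose pattern over cells was most like that of the pair were found by the median, over 14 collections, of the Spearman rho across cells, with counts taken per count outside the pair. Of 6250 other IDs detected in at least 50% of cells, the one most like ENSMFAG00000000004 was ENSMFAG00000000002, and the reverse held too (rho 0.741). Next for ENSMFAG00000000004 was ENSMFAG00000046424 (0.692, positive in 14 of 14 collections), and next for ENSMFAG00000000002 was ENSMFAG00000046420 (0.568, 14 of 14). The typical ID went the other way, with a median rho of -0.154 for the first and -0.119 for the second member. Only 6.54% and 12.1% of IDs had a rho above 0. Cells were not brought to an equal depth here, and all IDs outside the pair make up the shared denominator. The part of either in the negative values was not tested. The least like ENSMFAG00000000004 were ENSMFAG00000040574 (-0.529) and ENSMFAG00000031271 (-0.495). The least like ENSMFAG00000000002 were ENSMFAG00000041207 (-0.511) and ENSMFAG00000045515 (-0.507).

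Both ENSMFAG00000046424 and ENSMFAG00000046420 belong to the last 13 IDs of the table by number. This run was looked at after its values were seen, and no file used here names it. All 13 stood among the 15 IDs most like ENSMFAG00000000004, with rho between 0.493 and 0.692, and among the 19 most like ENSMFAG00000000002, with rho between 0.380 and 0.568. Of the other IDs in the first 20, the best ranked 11 for the first member and 9 for the second. The run was abundant as well: together it took 6.22% of the pooled counts, its members ranked from 2 (ENSMFAG00000046421) to 496 (ENSMFAG00000046426), and 9 of the 13 were counted in all 593 cells. As shares of all counts instead, the run's median rho was 0.508 and 0.350, and the median over all IDs -0.187 and -0.143.

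**Figure D5:**
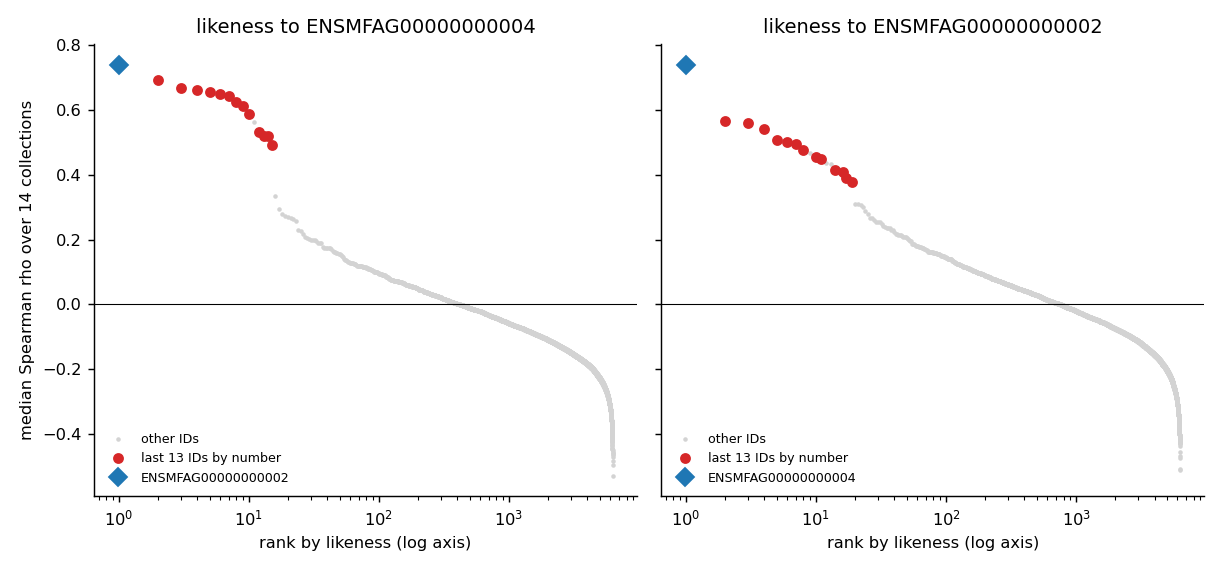
Likeness of 6250 IDs to ENSMFAG00000000004 (left) and to ENSMFAG00000000002 (right), as the median Spearman rho over 14 collections (vertical) against the rank (horizontal, log axis), with the other ID of the pair as a blue diamond and the last 13 IDs by number as red circles. The red circles fill most of the first 15 ranks on the left and of the first 19 on the right.

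Summed over the run, the likeness to ENSMFAG00000000004 was positive in 14 of 14 collections, from 0.347 in E17 B1p to 0.899 in E17 B5 (median 0.724). With ENSMFAG00000000002 it was 0.225 to 0.807 (median 0.542). The ratio within the pair had no common direction with the run (median 0.0444, 8 collections positive and 6 negative). Like the pair, the run was high where few other IDs were detected at equal depth (median rho -0.247, negative in 13 of 14 collections). With the counts outside the pair its median rho was -0.341 (13 of 14 negative). The run is itself counted among these other IDs and took up to 86.0% of their counts in a cell. Its part in the pair's relation with detection was not tested. A cell's counts of ENSMFAG00000000004 were 1.22 times those of the run at the median, with quartiles of 0.603 and 2.38, and were the larger of both in 339 of 593 cells. By collection this factor had its lowest median in E09 B1 (0.348) and its highest in E15 B3 (3.04). In the fit with the day, the run's slopes were between -0.22 and -0.09 log2 units per day with a median of -0.14, and 0 of the 13 were called (edgeR). An unadjusted p under 0.05 was found for 7 of the 13, and for 903 of all 16002 IDs (edgeR). The 13 were picked after their values were seen and resemble the same pair over cells. Their p-values are therefore not independent, and the 7 of 13 is no test of the run. The median slope of all 16002 IDs was 0.00.

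The remaining low numbers behaved otherwise. The rule that chose the pair also names IDs 1 to 24, and the other 22 of them each had a row and 0 counts in all 600 columns. For each, that allows a share of up to 1.51e-07% of the 1983222384 counts (3 counts over the total), if counts are taken as independent draws. Whether the libraries and the counting could pick up these IDs at all was not tested. An ID without any count was not rare, since 7195 of 28592 (25.2%) had none. Of the 24 IDs that follow by number (25 to 48), 21 had a count, and together they had 1847654 counts.

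The pair also differed from most abundant IDs in how its estimated counts came out. RSEM splits reads that match several genes, which leaves values that are not whole. The values of both IDs were whole in every kept cell (0 of 593 not whole for each, tolerance 1e-06), while 69 of the 100 most abundant IDs had at least 1 value that was not whole, and 9.63% of all values above 0 were not whole. Whether reads of these IDs also match other places in the genome was not tested.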

How the data were processed

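STAR (version 2.3.4) and RSEM are named per the submitters' processing notes. The build, the annotation and any filters: not given in the sources used here. Estimated counts per ID and cell, not normalized, were deposited by the authors. They were rounded for edgeR. The members and lists were chosen with earlier results of these data known. Shares are counts over the total count of a cell. Collections needed 5 cells for medians and 10 for sums, within-collection rho and likeness. Relations used 100000 two-sided permutations. Sums entered edgeR 4.0.16 (TMM, filterByExpr, quasi-likelihood, Benjamini-Hochberg, threshold 0.05), with DESeq2 1.42.0 and limma 3.58.1, on the mean of log2(CPM + 1), as alternatives. The fit was tested on simulated counts. IDs were named by rule: the pair, any of IDs 1 to 24 seen in 1% of cells (none was), the ID most often first after the pair (ENSMFAG00000046421, in 179 cells), and the 2 most and 2 least like each member. ENSMFAG00000037868, the last 13 IDs and single cells were added after their values were seen. SMART-seq2 has no molecular identifiers, so intervals cover counting error only. Of the 1154 samples of the series, 554 had no column in the deposited counts and so were not analysed here. How the others were selected is not given, so a collection need not hold all cells sampled.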

Additional observations from a re-analysis of the deposited data

Results flagged for a closer look

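In E09 B1, the only collection of 4 to 10 cells, 1 of 8 cells stood apart: cell 18 had 16.2% of its counts in ENSMFAG00000000004 and 16.3% in both IDs. The next highest cell had 8.33% in the first ID. Chance flags about 1 in 20 such groups if their values are normally distributed, which was not tested. The shares were taken as percentages and not on the log2 scale, so the rate may not hold for them. In all, 6 measures were looked at. The same cell had the lowest total of this collection, 2906985 counts, and 52.7% of its counts in the last 13 IDs.

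The 7 cells under 100000 counts entered no comparison. Pooled, they had 8.63% of their counts in ENSMFAG00000000004 and 1.74% in ENSMFAG00000000002. Single cells ran from 0.303% to 22.5% for the first ID and from 0.180% to 2.88% for the second. Their ratios were between 1.53 and 12.7, below the median of 26.9 of the kept cells. Cells 12, 76, 77 and 82 were from E19 B2, whose kept cells had the lowest median ratio (6.32), and ran from 1.53 to 5.26. The rest were from E17 B5 and E13 B1pe, where the kept medians were 18.5 and 32.6.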

How the results depend on the processing

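No alternative brought a call on either ID with the day, by edgeR, DESeq2 or limma. The slope of ENSMFAG00000000004 was between -0.18 (limma) and -0.07, and that of ENSMFAG00000000002 between -0.18 and -0.09. Leaving out each collection gave -0.14 to -0.05 and -0.21 to -0.11. Taking the B number as a replicate block assumes that equal numbers on different days belong together, which the titles do not state. With this block the slopes were -0.10 and -0.15 (edgeR, adjusted p = 0.889 and 0.682), and 1 ID was called over the table. That count was 2 in the fit as given, 903 IDs having an unadjusted p under 0.05. It was 1 with total counts alone, 6 with no filter and 18 with at least 5 cells. It was 0 with cells scaled to one total, with depth as covariate, with titles without dots and with limma (956, 952, 811 and 908 at an unadjusted p under 0.05), 166 with DESeq2, and 0 to 3 with each collection left out: 0 without E09 B2, E11 B2, E13 B2, E15 B3, E17 B4 or E19 B1, 1 without E13 B1pe, and 3 without E17 B5 or E19 B2. The cause was not tested.

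Of the relations over collections, 2 passed the threshold in 1 alternative each. Without E17 B1p, ENSMFAG00000000002 against the total count had r = -0.721 (permutation, adjusted p = 0.0440). Without E15 B1, the ratio against the total count had r = 0.706 (permutation, adjusted p = 0.0418). With each collection left out, r lay between -0.721 and -0.359 for the former and between 0.440 and 0.706 for the latter. Weak relations changed sign. ENSMFAG00000000004 against the total was at 0.0611 with pooled counts and 0.00554 with cells of 500000 counts, and the summed share at 0.0496 with pooled counts. With each collection left out these were -0.246 to 0.0703 and -0.265 to 0.0486, above 0 without E15 B2, E15 B3, E17 B4 or E20 B2. ENSMFAG00000000002 against the day was -0.244 to 0.122, above 0 without E20 B2, and the ratio against detected IDs -0.349 to 0.0841, above 0 without E15 B1. A minimum of 2000 detected IDs removed 0 cells. The median shares, the median ratio and the within-collection values moved by less than the SD between collections, while the likeness of ENSMFAG00000046424 to ENSMFAG00000000004 was 0.517 as shares of all counts. Counting error limits the ratio most where ENSMFAG00000000002 has few counts, and 95% of cells had 344.6 or more. Within collections the rho of the ratio with the cell's total count was positive in 13 of 14, all but E20 B2. Its median was 0.197 and its highest value 0.712 in E13 B1pe. Against counts outside the pair it was positive in 12 of 14 (median 0.188). The part of depth in this was not tested.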
